A study of Mus musculus with 24 samples.

Results

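TGF-beta ligands and their receptors were followed through the differentiation of C2C12 cells, a mouse myoblast line that leaves the cell cycle and fuses into myotubes when moved to differentiating medium. The members were the 6 genes Tgfb1, Tgfb2, Tgfb3, Tgfbr1, Tgfbr2 and Tgfbr3, out of 8251 genes that a probe set of the array named alone. They were chosen by name, though with earlier results of these data known, and had 7 probe sets, 4 for the 3 ligands and 3 for the 3 receptors. Total RNA had been hybridised to 24 Affymetrix MG_U74Av2 arrays, 3 on each of 8 days counted from the addition of the medium. Cells were proliferating on days -2 and -1 and confluent on day 0, and had spent 2, 4, 6, 8 or 10 days in the medium on the days of those numbers. All samples after day 0 were in the medium, so time in culture and exposure to it cannot be told apart there. The labels did not say whether the 3 arrays of a day came from separate cultures, and the p-values then measure only the spread between these samples.

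TGF-beta ligands are secreted as latent complexes and act only once released from them. The active dimer binds the kinase receptor Tgfbr2, which recruits and phosphorylates Tgfbr1, and Tgfbr1 phosphorylates Smad2 and Smad3, which enter the nucleus with Smad4. Tgfbr3, also called betaglycan, is a co-receptor without a kinase that presents ligand, Tgfb2 above all. In myoblast cultures, added TGF-beta is known for holding back myogenic differentiation.

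The 3 ligands were bright and differed between days, while no receptor probe set did by the test over all days. Tgfb1 was highest on day 0, at confluence, Tgfb3 stepped up at confluence and stayed up, and Tgfb2 was first called above day -2 on day 2. Intensities are in the linear units that the authors deposited. Before log2 values were taken, anything below 77 was set to 77, a floor at the 20th percentile of the whole table. Probe sets entered the tests if they averaged over 277.7 (the 40th percentile) on 1 day or more. Of the 7 member probe sets 5 passed, and those of Tgfbr1 and Tgfbr2 did not. Levels of different probe sets are not compared, because probe sets bind their targets with different strength. Moderated tests in limma, with Benjamini-Hochberg adjustment over all 8484 tested probe sets, are given with the standard error of the log2 change. By the F test over the 8 days, 3 of the 5 tested member probe sets differed, against 55.1% of all tested probe sets.

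**Figure D1:**
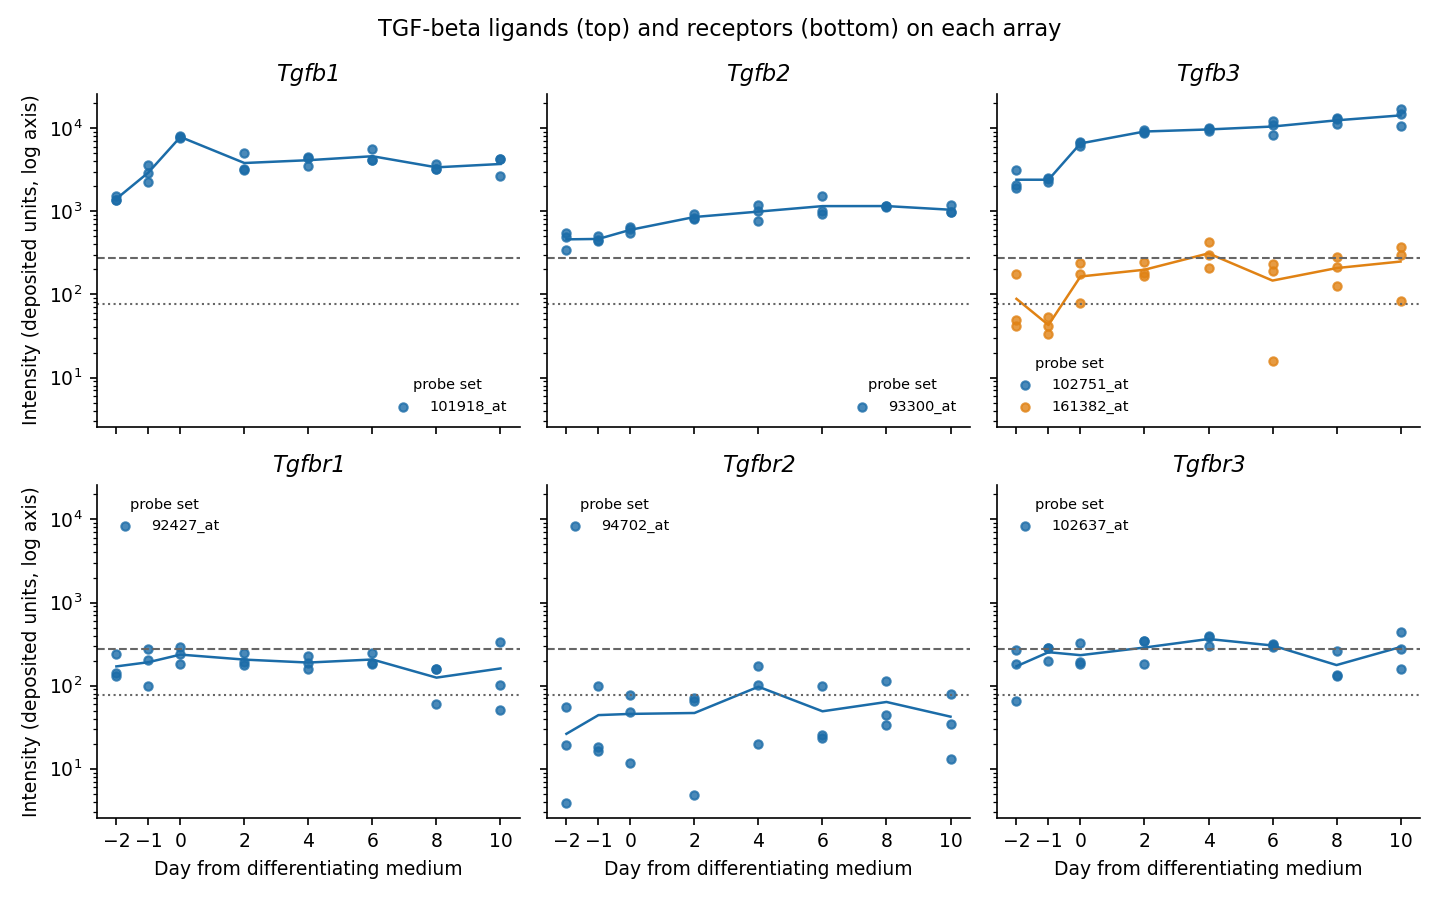
Deposited intensity (log axis) of each member probe set on every array, by day. Points are single arrays and lines join the daily means, the dotted line is the floor of 77 and the dashed line the filter value of 277.7. Tgfb1 is highest on day 0, Tgfb2 and the brighter Tgfb3 probe set are higher on later days, and most points of the receptors and of the second Tgfb3 probe set lie near or under the dashed line.

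Tgfb1, the founding ligand of the family, was measured by 1 probe set. Its intensities were 1369, 1361 and 1518 on day -2, 3635, 2930.3 and 2232 on day -1, and 7646, 7774 and 8159 on day 0. In differentiating medium they were 3126, 3252 and 5069 on day 2, 3517, 4405 and 4456 on day 4, and 4118, 4120.0 and 5576 on day 6. They were 3250.3, 3701 and 3203 on day 8 and 2658, 4268 and 4214 on day 10. The 3 arrays of day 0 lay above every array of every other day, and the 3 of day -2 lay below all others. Tgfb1 rose on day -1 over day -2 by 1.02 ± 0.19 on the log2 scale (limma, adjusted p = 0.00105) and on day 0 over day -1 by 1.45 ± 0.19 (adjusted p = 4.09e-06). Day 0 thus stood 5.56-fold above day -2, a log2 change of 2.47 ± 0.19 (limma, adjusted p = 6.56e-10). With scan day as a factor these changes were larger, at 3.19 on day 0 against day -2 and 2.61 against day -1. Of the 3 arrays of day 0, however, 2 were alone on their scan day. The other shared its scan day with 1 array of day 2 only. That fit thus tied day 0 to the other days through 1 array, and could hardly separate day 0 from scan day. On day 2 the gene fell by 1.08 ± 0.19 against day 0, a level 2.11-fold lower (limma, adjusted p = 1.91e-04).

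From day 2 on, Tgfb1 kept an intermediate level. In the order of its daily means, day 0 exceeded the next day, day 6, by 0.79 ± 0.19 on the log2 scale (limma, adjusted p = 0.00404). Days 6, 4, 2, 10, 8 and -1 followed, with no pair of neighbours that differed by the test (adjusted p from 0.360 to 0.965), and day -2 came last. Further apart in that order, day 6 exceeded day -1 by 0.66 ± 0.19 (limma, adjusted p = 0.00965) and day 4 by 0.51 ± 0.19 (adjusted p = 0.0421). Days 2, 8 and 10 were not called against day -1. On day 10 it was still 2.57-fold above day -2 (limma, log2 change 1.36 ± 0.19, adjusted p = 3.54e-06) and had fallen by 1.11 ± 0.19 against day 0 (adjusted p = 9.72e-05), with a change of -1.81 when scan day was a factor. The 5 chip lots and 11 scan days recorded in the array files held few arrays of any pair of days, so within-batch values are differences of 1 or 2 arrays a day. Within the largest lot, the Tgfb1 change was 2.53 on day 0 against day -2, and -1.31 on day 2 against day 0. The step of day -1 over day -2 was 0.71 and 1.18 in the 2 lots that held both days, and its call ended in the fit with scan day as a factor (0.59, adjusted p = 0.451) and in the largest lot alone (0.71, adjusted p = 0.224).

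Tgfb3, the third mammalian ligand of the family, had a bright probe set and a dim one. The bright one read 2099, 3182 and 1924 on day -2, 2251, 2439 and 2512 on day -1, and 6193, 6905 and 6599.9 on day 0. On days 2 and 4 it read 9496, 8765 and 9136, then 9187, 9953 and 9869. On day 6 it read 8395, 10916 and 12148, on day 8 it read 11149, 13249 and 12955, and on day 10 it read 17212, 10599 and 15006. The 6 arrays of the proliferating days lay below all 18 later arrays, and the 3 arrays of day 0 lay below all those of days 2 to 10. Unlike Tgfb1, Tgfb3 did not differ between the proliferating days by the test (log2 change 0.03 ± 0.17, 95% interval -0.31 to 0.38). It then rose by 1.45 ± 0.17 on day 0 over day -1, which is 2.74-fold (limma, adjusted p = 3.80e-07). Day 0 against day -2 gave 1.49 ± 0.17 (limma, adjusted p = 1.72e-07), 57.6% of the whole range of its daily means, which spanned 5.97-fold.

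The bright signal of Tgfb3 was higher again on day 2 than on day 0, by 0.48 ± 0.17 (limma, adjusted p = 0.0412). This call was narrow, and it ended when any 1 of the 6 arrays of both days was left out (0.44 to 0.51, adjusted p from 0.0620 to 0.123). No later step between neighbouring days was called, yet day 10 exceeded day 0 by 1.09 ± 0.17, or 2.13-fold (limma, adjusted p = 1.66e-05). Within the largest chip lot, Tgfb3 changed by 1.61 on day 0 against day -2, by 0.51 on day 2 against day 0 and by 0.73 on day 10 against day 0. With scan day as a factor the calls of day 0 against day -1 (1.54, adjusted p = 0.0554) and day 10 against day 0 (1.05, adjusted p = 0.0974) were lost at about the same size of change.

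The second probe set of Tgfb3 was dim, between 15.8 and 431.8 over the 24 arrays, with 6 arrays under the floor. All 3 arrays of day -1 were under the floor, and so were 2 of day -2 and 1 of day 6. Its daily means ran from 42.9 on day -1 to 311.9 on day 4. Day 4 was the 1 day whose mean exceeded the filter value, so the probe set entered the tests only through the day on which it was highest, and its higher level on that day is given as a description. It did not pass the test over all days (limma F test, adjusted p = 0.0853). Its day 0 change over day -1 was 0.95 ± 0.56, with a 95% interval from -0.21 to 2.12 that holds the 1.45 of the bright probe set.

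Tgfb2, the ligand that depends most on betaglycan for binding, was measured by 1 probe set. Its intensities were 547.4, 340.9 and 491.6 on day -2, 445.1, 499.4 and 451.8 on day -1, and 607.0, 544.4 and 646.6 on day 0. They were 799.1, 841.2 and 923.2 on day 2, 771.9, 1014 and 1193 on day 4, and 916.9, 1014 and 1537 on day 6. They were 1162, 1174 and 1136 on day 8 and 1181, 975.6 and 978.3 on day 10. Every array from day 2 on lay above every array up to day 0, while day 0 overlapped day -2. Tgfb2 differed over the 8 days (limma F test, adjusted p = 2.33e-06) although no single step between neighbouring days was called.

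Against day -2, the first day on which Tgfb2 was called was day 2, higher by 0.92 ± 0.21 on the log2 scale (limma, adjusted p = 0.00113). Day 0 was higher by 0.41 ± 0.21 without a call (limma, adjusted p = 0.149). The steps on either side of confluence were 0.36 ± 0.21 on day 0 over day -1 (adjusted p = 0.227) and 0.51 ± 0.21 on day 2 over day 0 (adjusted p = 0.0829). Its highest daily mean, on day 8, was 2.57-fold above its lowest, on day -2. On day 0 it had reached 29.9% of that range and on day 2 it had reached 67.6%. Day 10 exceeded day 0 by 0.80 ± 0.21 (limma, adjusted p = 0.00465), and the change was 0.64 within the largest chip lot, where it was not called (adjusted p = 0.217), and 0.37 with scan day as a factor (adjusted p = 0.810).

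**Figure D2:**
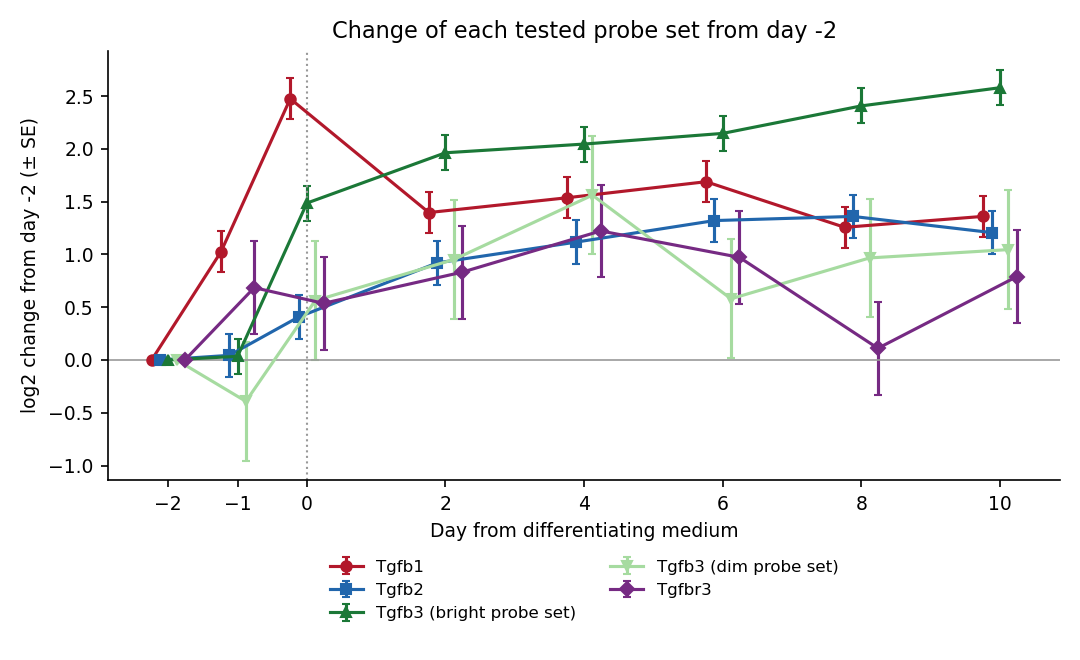
Fitted log2 change of each tested member probe set from day -2 (vertical axis) by day (horizontal axis), with error bars of 1 standard error from the limma fit and the dotted line at day 0. Tgfb1 reaches 2.47 on day 0 and 1.40 on day 2, the bright Tgfb3 probe set reaches 1.49 on day 0 and 2.58 on day 10, Tgfb2 reaches 0.41 on day 0 and 1.21 on day 10, and Tgfbr3 has wide error bars throughout.

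Tgfbr3, the co-receptor betaglycan, was the only receptor gene that passed the filter on low values. Its probe set read 265.7, 181.6 and 65.5 on day -2, 280.8, 195.2 and 281.5 on day -1, and 194.9, 180.7 and 321.8 on day 0. It read 341.5, 339.7 and 180.4 on day 2, 303.6, 398.7 and 389.4 on day 4, and 305.3, 292.3 and 314.4 on day 6. It read 130.4, 135.9 and 263.8 on day 8 and 157.2, 440.2 and 276.3 on day 10. Neighbouring days overlapped at every step except the one to day 8, where all 3 arrays lay below those of day 6. The test over all days was not passed (limma F test, adjusted p = 0.198), and no step was called.

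The largest step of Tgfbr3, on day 8 against day 6, was -0.86 ± 0.44 (limma, adjusted p = 0.517). Day 4, its highest day, stood 1.22 ± 0.44 on the log2 scale above day -2, its lowest, or 2.33-fold. Its daily mean exceeded the filter value on 4 of the 8 days, day 4 among them and day -2 not. The probe set thus entered the tests through its higher days, and this difference is given as a description. The lowest array of day -2 was under the floor. The precision was low, and the 95% interval of the change on day 0 against day -2 ran from -0.37 to 1.45.

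Tgfbr1, the type I kinase receptor, read between 50.9 and 331.3 over the 24 arrays with a median of 185.6, and 2 arrays were under the floor. Its arrays read 239.8, 142.1 and 129.0 on day -2, 291.4, 180.2 and 236.9 on day 0, and 331.3, 50.9 and 100.6 on day 10, and the days overlapped. Tgfbr2, the type II kinase receptor that binds the ligand first, read between 3.9 and 170.6 with a median of 39.3, and 17 of its 24 arrays were under the floor. Its highest daily mean was 97.0 on day 4, when the arrays read 170.6, 100.7 and 19.6. When the filter was dropped, neither gene was called in any of the 10 comparisons (limma, lowest adjusted p = 0.343 for Tgfbr1 and 0.138 for Tgfbr2, lowest unadjusted p = 0.121 and 0.0214). A dim probe set does not show that a receptor was absent, only that these probes gave little signal over background.

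Set side by side, the member probe sets called at each step were few. On day -1 against day -2, Tgfb1 rose, 1 of 5 tested member probe sets, where 9.29% of all tested were called in either direction. On day 0 against day -1, Tgfb1 and Tgfb3 rose, 2 of 5 against 25.8%, and the same 2 of 5 rose on day 0 against day -2, against 32.5%. From day 0 to day 2, Tgfb3 rose and Tgfb1 fell, 2 of 5 against 21.6%. At the later steps 0 members were called, where 13.9% of all tested probe sets were called on day 4 over day 2, 0.389% on day 6 over day 4, 0.0471% on day 8 over day 6 and 0.0% on day 10 over day 8. At an unadjusted p under 0.05 the limma fit gave 0 members at these steps except that to day 8, with 1, Tgfb1. Over the whole differentiation period, from day 0 to day 10, Tgfb2 and Tgfb3 rose and Tgfb1 fell, 3 of 5 against 28.2%. Measured from day -2, the 3 bright ligand probe sets were called on day 2 (32.6% of all tested), day 4 (44.3%), day 6 (42.0%), day 8 (46.0%) and day 10 (44.6%). The second Tgfb3 probe set passed the filter by its day 4 mean alone, and Tgfbr3 through its higher days. Neither is counted for day 4.

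The timing of each ligand was set against that of Tgfbr3 within the arrays, as the log2 ligand value minus the log2 Tgfbr3 value. The offset between 2 probe sets has no meaning, so only its change between days is read. On day 0 the difference for Tgfb1 was 4.66 to 5.43 over 3 arrays, against 2.37 to 4.30 over the 6 arrays of days -2 and -1, and the groups did not overlap. Tgfb1 changed by 1.96 and Tgfbr3 by 0.19, so the difference changed by 1.77 (2-sided exact permutation test, p = 0.0238, the smallest that 3 against 6 arrays can give, and 0.0714 after adjustment over the 6 tests). For Tgfb3 the difference was 4.36 to 5.26 on day 0, against 2.98 to 4.64 on days -2 and -1. It changed by 1.27 (exact permutation p = 0.0476, adjusted p = 0.0952). For Tgfb2 it changed by 0.19 (exact permutation p = 0.714, adjusted p = 0.714).

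After day 0 the same difference went down for Tgfb1. It was 3.19 to 4.81 over the 15 arrays of days 2 to 10, against 4.66 to 5.43 on day 0, a change of -1.28 (2-sided exact permutation test, p = 0.00735, adjusted p = 0.0441). Of the 15 arrays 13 lay below all 3 of day 0. The call was narrow: it was lost when any 1 of the 3 arrays of day 0 was left out (-1.51 to -1.13, adjusted p from 0.0882 to 0.214), and for 13 of the 15 later arrays (adjusted p = 0.0529). Tgfb2 and Tgfb3 changed against Tgfbr3 by 0.53 and 0.49 (exact permutation p = 0.208 and 0.301, adjusted p = 0.3125 and 0.362). Both sets of tests share the arrays of day 0, and the arrays of several days were pooled as 1 group, so differences among those days add to the spread.

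**Figure D3:**
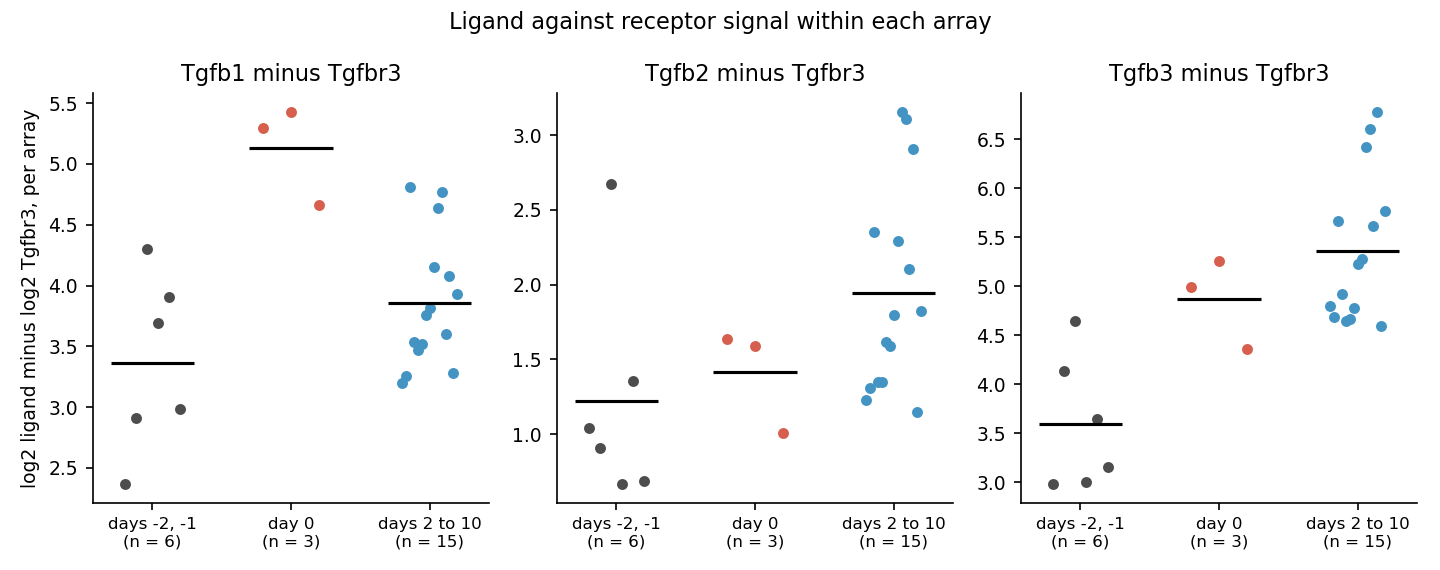
Log2 value of each ligand minus that of Tgfbr3 within each array (vertical axes, each with its own range that does not start at 0), for days -2 and -1, day 0 and days 2 to 10. Points are arrays and bars are means. For Tgfb1 all 3 arrays of day 0 lie above the 6 earlier arrays, while for Tgfb2 the 3 groups overlap.

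Fewer cells of a kind and less RNA per cell cannot be told apart in RNA of whole cultures. All 9 muscle lineage markers passed the filter, and their summed intensity was 81824 on day 0, against 24823 on day -2. Myog, a transcription factor of differentiating myoblasts, averaged 20132.9 on day 0, against 423.2 on day -2, and 8 of the 9 markers rose and Myf5 fell. Of the fibroblast markers 4 of 6 were tested and 2 of these, Pdgfrb and S100a4, rose on day 0 against day -2 and fell on day 2 against day 0, the directions of Tgfb1. The other 2, Pdgfra and Vim, were called in neither comparison, and Pdgfra fell by 1.89 ± 0.43 on day 0 against day -1. The summed fibroblast markers were 41692 on day 0, against 28373 on day -2, and 31024 on day 2. Most of each sum was S100a4, at 38836, 27188 and 28966. Thy1 was under the floor on all 24 arrays and Fap on 16. The macrophage markers Lyz2 and Ptprc were under the floor on 24 and 22 arrays, and Cdh5 of endothelium on 23. Other markers of these lists did pass the filter, 3 of 6 in each. They were Cd68, Csf1r and Cd14 of macrophages and Pecam1, Kdr and Cd34 of endothelium. Cd14 averaged between 1381.1 and 1919.5 on the 8 days. Of 6 neural markers 4 were tested and 3 (Nefl, Nefm and Tubb3) fell on day 0 against day -2. Among the 2 tested of 4 adipocyte markers on the array Pparg fell on day 0 against day -2. The other, Cebpa, rose by 1.63 ± 0.11 on day 0 against day -2 and fell by 1.32 ± 0.11 on day 2 against day 0, again the directions of Tgfb1, as did the muscle marker Myod1, which fell by 1.04 ± 0.10 on day 2 against day 0. Adipoq, which defines adipocytes, averaged between 98.9 and 169.5 on the 8 days. The part of these cell types in the ligand changes was not tested. The 3' to 5' signal ratio, a measure of RNA integrity, of the array's control probes was 0.764 to 0.954 for Gapdh and 1.01 to 1.17 for Actb.

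Of 15 tested genes listed under latency and activation of TGF-beta, 8 rose on day 0 against day -2 and 1, Ltbp1, fell, with a median log2 change of 0.67. Over all 6287 tested genes 1122 rose and 1093 fell, 35.2% in all, with a median of 0.02. Igf2r, a receptor that binds latent TGF-beta, averaged 1440.0 ± 87.7 on day 0, against 500.5 ± 53.2 on day -2 (SD, n = 3), a log2 change of 1.53 ± 0.15 (limma, adjusted p = 2.63e-08). Ltbp2, a matrix protein of the latent TGF-beta binding family, rose by 1.53 ± 0.17, Mmp14, a membrane protease that can release the ligand, by 1.22 ± 0.09, and Furin, the protease that cleaves the ligand precursor, by 1.22 ± 0.15. Furin was highest on day 0, like Tgfb1, at 8575 ± 281, against 3689 ± 237 on day -2.

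After 2 days in the medium, 4 of the 15 latency and activation genes had fallen against day 0, namely Furin, Mmp14, Ltbp2 and Ltbp4, and Igf2r alone rose, 33.3% of the list against 23.3% of all 6287 genes. Furin fell by 0.87 ± 0.15 and Ltbp2 fell by 0.97 ± 0.17 (limma, adjusted p = 7.82e-05 and 1.42e-04). On day 10 against day 0, 4 rose and 3 fell, with a median of -0.10, against 915 higher and 954 lower over all genes. The integrin subunit Itgb5 was higher on day 10 by 1.12 ± 0.12, the lysosomal protease Ctsd by 1.25 ± 0.17 and the matrix glycoprotein Thbs2 by 0.99 ± 0.26, and Plat was the other gene that rose. Furin fell by 0.97 ± 0.15 on day 10 against day 0, and the other genes that fell were Itgav and Ltbp2.

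Among co-receptors and binding proteins, 4 of 10 tested genes rose on day 0 against day -2 and 2, Fkbp1a and Cav1, fell, with a median of 0.08. The rises included the proteoglycans Dcn, by 2.53 ± 0.34, and Bgn, by 0.74 ± 0.12, which bind TGF-beta in the matrix, and the adaptor Dab2, by 0.76 ± 0.21 (limma, adjusted p = 2.85e-06, 4.10e-05 and 0.00707). Bmpr2, the type II receptor of bone morphogenetic proteins, rose by 1.06 ± 0.29. Dab2 averaged 807.1 ± 94.8 on day 2, against 4055 ± 383 on day 0 (SD, n = 3), and fell by 2.33 ± 0.21. Dcn fell by 1.05 ± 0.34 in that step and Cav1 rose by 0.76 ± 0.23, and 5 of the 6 arrays for Dcn and 3 for Cav1 ended the call when left out (adjusted p from 0.0558 to 0.104). The Dcn call in that step was also lost with the lower floor and without the filter (adjusted p = 0.0861 and 0.0711). On day 10 against day 0, Dcn rose by 1.73 ± 0.34 and Dab2 fell by 1.71 ± 0.21. The change of Bgn in that comparison, 0.39 ± 0.12 (limma, adjusted p = 0.0200), lost its call without any 1 of 4 arrays (0.29 to 0.34, adjusted p up to 0.119) and was -0.059 with scan day as a factor (adjusted p = 0.920).

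Of 17 tested genes of Smad signalling, 4 rose on day 0 against day -2 and 1 fell, with a median of 0.21. These were 29.4% of the list, against 35.2% of all genes. None of Smad1, Smad2, Smad3, Smad4 and Smad5 was among them. The inhibitory Smad6 rose by 1.18 ± 0.20, the Smad repressor Ski by 0.87 ± 0.08, the transcription factor Zeb1 by 0.84 ± 0.11 and the corepressor Tgif1 by 0.56 ± 0.11, and the ubiquitin ligase Nedd4l fell by 0.70 ± 0.13. In the step to day 2, 2 rose and 3 fell, 29.4% against 23.3%. Smad6 averaged 602.2 ± 85.0 on day 2, against 1913 ± 69 on day 0, and fell by 1.68 ± 0.20 (limma, adjusted p = 5.83e-07), and Smad7, the inhibitory Smad of the TGF-beta receptors, fell by 0.95 ± 0.18 (adjusted p = 3.56e-04). Ppm1a, a phosphatase of Smad2 and Smad3, rose by 0.64 ± 0.19 in that step, and Zeb1 rose by 0.35 ± 0.11 (limma, adjusted p = 0.0165 and 0.0244). Ppm1a lost the call without any 1 of 3 arrays (adjusted p up to 0.0902) and so did Zeb1 (0.28 to 0.36, adjusted p up to 0.129), and the fall of Tgif1 by 0.40 ± 0.11 lost it without 1 array of day 0 (-0.32, adjusted p = 0.0611).

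On day 10 against day 0, 4 of the 17 Smad signalling genes rose and 5 fell, 52.9% against 29.7% of all genes. Smad6 fell by 1.46 ± 0.20 and Smad7 fell by 0.98 ± 0.18, and Zeb1 rose by 0.89 ± 0.11. Crebbp, a coactivator of Smads, fell by 0.94 ± 0.29, a call lost without 1 array of either day (-0.90 and -0.77, adjusted p = 0.0537 and 0.0883). The other genes were Smad1, Nedd4l and Ppm1a, which rose, and Sp1 and Tgif1, which fell, and with scan day as a factor 0 of the 9 kept the call.

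Most target genes of TGF-beta called on day 0 against day -2 were higher on day 0. Most of those called on day 2 against day 0 were lower on day 2. Both comparisons share the 3 arrays of day 0, and the genes that did both were not counted. Of 32 tested, 19 rose on day 0 against day -2 and 3, Myc, Col1a1 and Cnn1, fell, with a median of 0.55. Col3a1, a fibrillar collagen, averaged 19515 ± 919 on day 0, against 5190.0 ± 356.0 on day -2 (SD, n = 3), and rose by 1.91 ± 0.11 (limma, adjusted p = 2.86e-12). The immediate early transcription factors Junb and Klf10 rose by 1.58 ± 0.11 and 1.45 ± 0.11. By day 2, 16 target genes had fallen against day 0 and 3 had risen, with a median of -0.46, against 702 lower and 761 higher of all 6287 genes and a median of 0.00. Id1 and Id3, inhibitors of myogenic transcription factors that respond also to bone morphogenetic proteins, changed by -2.88 ± 0.13 and -4.24 ± 0.15 in that step (limma, adjusted p = 2.62e-14 and 5.45e-16).

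Id3 averaged 886.6 ± 99.1 on day 2, against 16682 ± 1071 on day 0. The target genes that rose on day 2 were Postn, a matrix protein, by 2.43 ± 0.25, Cdkn1a, the cell cycle inhibitor p21, by 2.24 ± 0.21, and Col1a1, by 0.99 ± 0.17. On day 10 against day 0, 6 target genes rose and 15 fell, and Postn was higher by 4.68 ± 0.25 and Cdkn1a by 2.45 ± 0.21, while Id1 fell by 2.70 ± 0.13 and Id3 fell by 3.63 ± 0.15. Of the 30 target genes that differed over the 8 days, 12 had their highest daily mean on day 0, the day of the Tgfb1 maximum, which is 40%, against 570 of 3678 differing genes of all kinds, or 15.5%. Many of these targets also answer to other signals, and the list holds Ltbp2 in common with the latency list. The list gives no direction of response to TGF-beta for its genes, so its counts of rises and falls do not measure that response. All 4 lists were chosen with earlier results of these data known, so their shares beside all genes are descriptions. Col1a1, Ltbp1 and the other genes outside the 4 largest changes of a list were named after their values were seen.

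The batch recorded as scan day bore on these counts. In the fit with scan day as a factor, 1 array alone tied day 0 to the other days, through 1 array of day 2. Calls kept or lost against day 0 in that fit therefore decide little. This limit holds for every change against day 0 given with scan day as a factor. With scan day as a factor, which left 6 residual degrees of freedom in place of 16, 10 target genes rose and 0 fell on day 0 against day -2, with 333 and 258 over all genes. From day 0 to day 2, 3 target genes rose and 12 fell under that fit, with 324 and 248 over all genes, and from day 0 to day 10, 3 rose and 5 fell, with 211 and 169. On day 0 against day -2, 3 of the 9 called latency and activation genes kept their call in that fit (Furin, Igf2r and Mmp14), as did 3 of 6 co-receptors and binding proteins (Dcn, Bgn and Cav1) and 2 of 5 Smad signalling genes (Ski and Zeb1). Among the calls lost were those of Bmpr2 (0.93), Dab2 (0.63), Ltbp2 (1.30), Tgif1 (0.50), Nedd4l (-0.36) and Smad6 (0.62). In the step to day 2, 2 of 5 latency genes (Furin and Mmp14), 2 of 3 co-receptors and binding proteins (Dab2 and Cav1) and 1 of 5 Smad signalling genes (Smad6) kept it, and those lost included Dcn (-1.35), Smad7 (-0.49), Ppm1a (0.88) and Zeb1 (0.28). On day 10 against day 0, Ctsd alone of 7 latency genes kept the call, with 0 of 3 co-receptors and binding proteins. The largest chip lot alone, with 3 residual degrees of freedom, and chip lot as a factor each ended 0 to 4 calls per list and comparison, among them Bmpr2 (0.78 in the largest lot), Crebbp (-0.86) and Thbs2 (0.45). Single arrays also decided the calls of Ltbp1, Fkbp1a, Cav1, Myc and Col1a1 on day 0 against day -2, of Ltbp4 on day 2 and of Ltbp2, Sp1, Smad1 and Ppm1a on day 10, each lost without 1 or more single arrays (adjusted p from 0.0528 to 0.180).

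**Figure D4:**
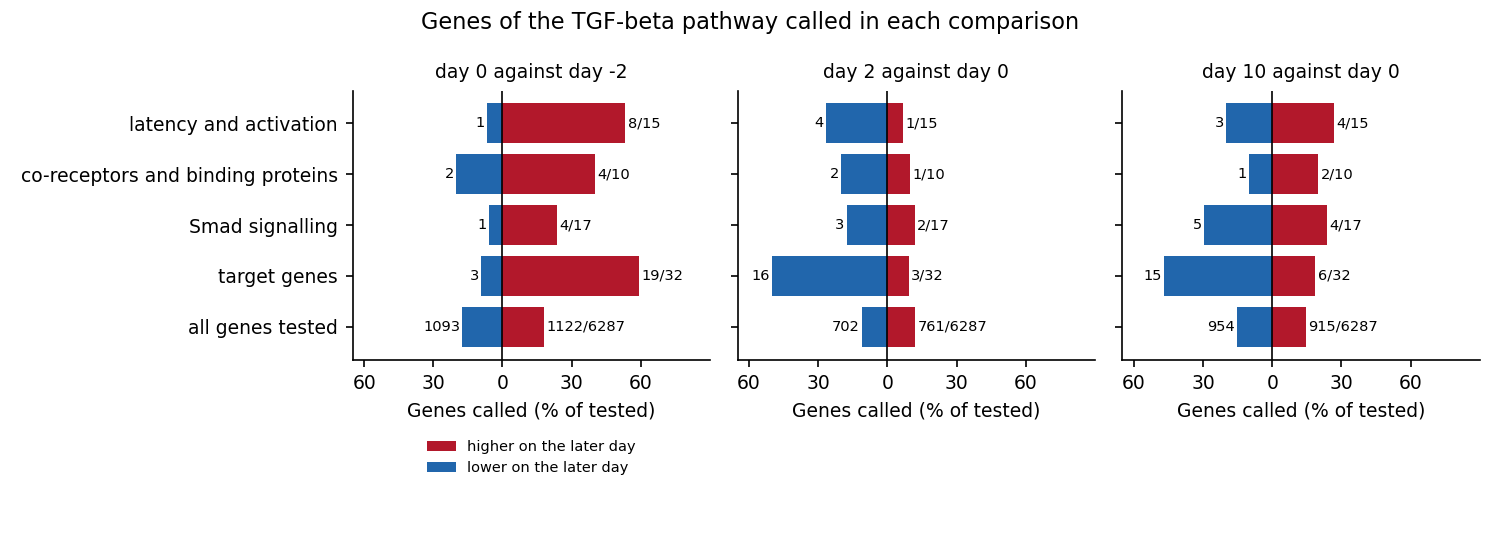
Share of the tested genes of each list called higher (right) or lower (left) on the later day, in percent, with the counts beside the bars, in 3 comparisons of a later with an earlier day. Of 32 target genes 19 were higher on day 0 than on day -2 and 16 were lower on day 2 than on day 0, beside 1122 and 702 of all 6287 genes.

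The genes whose 8 daily means were most like those of each member are given as a description, by Pearson r of mean log2 values over 8 days among 6283 other tested genes. For Tgfb1 they were Ythdf3 (r = 0.992), Mtfr1l (r = 0.973) and G0s2 (r = 0.971), which shared its maximum on day 0. For Tgfb2 they were Septin11 (r = 0.994), Nfe2l1 (r = 0.992) and Lsp1 (r = 0.992), and for Tgfb3 they were Akt2 (r = 0.994), Cacna2d1 (r = 0.992) and Zfp568 (r = 0.990). An r over 0.9 was reached by 62 genes with Tgfb1, by 513 with Tgfb2 and by 439 with Tgfb3. With the noisy Tgfbr3 it was reached by 3, Caml (r = 0.944), Ptgfrn (r = 0.922) and Sirt3 (r = 0.903). Among the members themselves, Tgfb2 and Tgfb3 were the pair most alike (r = 0.951), while Tgfb1 had r = 0.394 with Tgfb2 and 0.559 with Tgfb3. All these values share the same 24 arrays and 8 days.

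The promoters of Tgfb1 and Tgfb2 are shown because the time courses of these ligands differed and RefSeq start sites for both were at hand. Of the 6 members 4 were in the RefSeq promoter table (build GRCm38.p6), among them neither Tgfb3 nor Tgfbr3. Each window holds the 250 bases before the gene start, written 5′ to 3′ on the strand of the gene, at chr7:25686752-25687001 on the plus strand for Tgfb1 and at chr1:186705990-186706239 on the minus strand for Tgfb2. Capitals mark the GC box GGGCGG, the E-box CANNTG and the TATA box TATAAA, searched on both strands, with no overlap between matches.
Tgfb1: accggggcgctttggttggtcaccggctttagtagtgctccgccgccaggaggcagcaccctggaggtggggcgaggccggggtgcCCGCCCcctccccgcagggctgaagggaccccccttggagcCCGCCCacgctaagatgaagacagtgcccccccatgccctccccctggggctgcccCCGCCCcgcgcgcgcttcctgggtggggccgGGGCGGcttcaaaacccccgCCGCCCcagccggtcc
Tgfb2: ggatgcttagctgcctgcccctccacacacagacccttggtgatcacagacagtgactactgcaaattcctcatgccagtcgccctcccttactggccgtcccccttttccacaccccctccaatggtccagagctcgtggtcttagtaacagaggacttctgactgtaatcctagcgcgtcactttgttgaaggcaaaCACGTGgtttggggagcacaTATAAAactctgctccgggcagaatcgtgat
The Tgfb1 window held 5 GC boxes, a motif found in 32.7% of 32851 mouse promoter windows of this length, and no E-box or TATA box. The Tgfb2 window held 1 E-box, CACGTG, whose first base lay at -51 from the gene start (66.2% of windows have an E-box), and 1 TATA box at -31 (12.4%), and no GC box. The Smad element CAGAC, present in 42.2% of windows, was found 2 times in the Tgfb2 window and not in that of Tgfb1, and the AP-1 site TGACTCA (4.46%) in neither. In these windows, G and C made up 75.2% of the bases for Tgfb1 and 53.6% for Tgfb2, beside a median of 52.4% over the same 32851 windows. Windows of 1 chromosome had been left out of that background. These are matches of letters only, and no binding was measured.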

How the data were processed

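Total RNA of C2C12 cells was measured on 24 MG_U74Av2 arrays, 3 on each of 8 days. The values the authors deposited are linear intensities, 1 per probe set and array, whose summarising method is not given in the sources used here. Without the lowest and highest 2% of values, each array had a mean of 1500.85 to 1500.98, so no rescaling was done. Of 12488 probe sets, 66 controls were left out. Platform annotation with updated symbols gave 1 gene for 10833 of the other 12422, several for 396 and none for 1193. Between 15.7% and 25.6% of an array's values lay at the floor of 77.

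All days entered 1 model in limma 3.58.1 (R 4.3.3), with a trend in the variance prior (16 residual degrees of freedom, 6.43 prior), after a check on simulated data. Calls were made at an adjusted p under 0.05, tests were 2-sided, and the number of arrays limits the precision. Exact permutation tests used scipy 1.17.1, and figures matplotlib 3.10.9, in Python 3.11.15. Arrays of the same day correlated at 0.935 to 0.974. Named pathway genes are up to 4 called genes per list and comparison with the largest changes, each gene by its brightest probe set, and for each member the 3 genes with the most similar daily means. The members and lists were chosen with earlier results of these data known. Normalization, floor, filter, replicate block, scan day, chip lot and leaving out arrays were varied.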

Additional observations from a re-analysis of the deposited data

How the results depend on the processing

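Of 50 results of single member probe sets, 43 kept their direction of call and their side of the threshold under every alternative. Most of the 50 had no call and stayed without one, so this share says little of how firm the calls were. Under 1 or more alternatives Tgfb1 lost its call at the step to day -1. Tgfb2 lost its calls over all days and from day 0 to 10. The bright Tgfb3 probe set lost its calls at the steps to days 0 and 2, and from day 0 to 10. The 45 results of named pathway genes were all calls, and 23 of them were kept under every alternative. For the count of member probe sets called, day 0 against day -2 gave 2 in all 16 alternatives and the test over all days gave 2 to 4, while 0 were called at the 3 steps from day 2 to day 8 and at the step to day 10 in all alternatives. With scan day as a factor there were 6 residual degrees of freedom, and the fit gave 0 on day -1 against day -2, 1 on day 0 against day -1, 1 on day 2 against day 0 and 1 on day 10 against day 0, and the largest chip lot alone gave 0 on day -1 against day -2. On day 2 against day 0 the count was 1, Tgfb1, without the filter, with chip lot as a factor, in the largest lot alone, and in all fits that left out 1 array (range 1 to 1). Deviations from the day means correlated at a mean of 0.025, 0.01 and 0.064 between arrays numbered 1, 2 and 3. Between arrays of different numbers and days the mean was -0.017. For number 3, 12 of 28 pairs exceeded 0.1, against 14 of 168 pairs of different numbers. These values do not settle whether the replicate numbers pair the samples. With the replicate block the Tgfb1 change on day 0 against day -2 stayed at 2.47, the counts of called members by step did not move, and the second Tgfb3 probe set, tested only through its day 4 mean, passed over all days (adjusted p = 0.0489). It also passed with quantile normalization, the lower floor, the pseudocount and without day 10 replicate 3 (adjusted p from 0.0165 to 0.0480). The Tgfb2 test over all days was lost with scan day as a factor (adjusted p = 0.103). For the change of ligand minus Tgfbr3 on day 0 against days -2 and -1, Tgfb1 passed with quantile normalization (1.73), the floor at the 40th percentile (1.90) and the pseudocount (1.78), Tgfb3 passed in the same settings (1.25, 1.40 and 1.30), and Tgfb2 with the higher floor (0.32). For days 2 to 10 against day 0, Tgfb2 and Tgfb3 passed with the higher floor (0.66 and 0.63), and Tgfb1, called at -1.28, lost the call in 16 of 24 alternatives, each of which left out 1 array (range -1.51 to -1.13). The higher floor of 277.7 raised 12 of the 24 Tgfbr3 values, and all 3 arrays on 2 of the 8 days. Bgn reversed on day 10 against day 0 with scan day as a factor (-0.059). The list counts, run under the alternatives after seeing the data, gave 16 to 19 target genes up on day 0 against day -2 and 16 to 18 down on day 2 against day 0 in the 15 alternatives other than scan day as a factor. The largest lot held no array of day 4, so the steps to and from it could not be fitted there.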

Other observations

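With the filter on low values dropped, a choice made after seeing the data, each ligand was also set against Tgfbr1 and Tgfbr2, which made 18 tests in all. For days 2 to 10 against day 0, the Tgfb2 value minus the Tgfbr1 value was higher by 1.24 and the Tgfb3 value minus the Tgfbr1 value by 1.21 (2-sided exact permutation tests over 15 and 3 arrays, adjusted p = 0.0221 and 0.0294). In both pairs the ligand was higher and Tgfbr1, not called by itself, was lower by 0.47 on average. Its mean log2 value was 7.86 on day 0, 7.55 to 7.68 on days 2 to 6, 6.95 on day 8 and 7.10 on day 10. On each of days 8 and 10, 1 of the 3 Tgfbr1 arrays was under the floor. The daily mean of Tgfbr1 exceeded the filter value on 0 days. The Tgfb1 value minus the Tgfbr2 value changed by -1.19 (exact permutation, adjusted p = 0.0221), with 17 of the 24 Tgfbr2 values under the floor, so that this change is nearly that of Tgfb1 alone (-1.03).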
